A study of Mus musculus with 2 samples.

Results

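The Frizzled and LRP Wnt receptors described here are 10 genes, the Frizzled receptors Fzd1 to Fzd8 and the co-receptors Lrp5 and Lrp6, out of 18193 genes that at least 1 probe set of the array names alone. They were chosen by name, as every probe set whose only platform gene symbol was 1 of the 10, which gave 26 of 34945 such probe sets. Messenger RNA was measured on 2 Affymetrix microarrays, 1 for cultured rib chondrocytes (cartilage cells) of wild-type mice and 1 for the same kind of culture from miR-140 knockout mice. Both cultures came from mice aged 5 days with the same strain label, C57BL/6 and CBA. The labels give no other allele or treatment and do not say how many mice were used. The comparison was made to look for messenger RNAs that miR-140, a microRNA abundant in cartilage, may repress.

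Wnt proteins are secreted signals that bind the cysteine-rich outer domain of a Frizzled receptor. With LRP5 or LRP6 beside the Frizzled receptor, the signal stabilizes beta-catenin, which enters the nucleus and acts with TCF/LEF factors. Without these co-receptors, some Wnt proteins act through Frizzled receptors on cell polarity and movement. In the growth plate, Wnt signalling is known to influence how chondrocytes mature and how the surrounding cells choose between cartilage and bone.

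The deleted product is shown first because it is the single labelled difference between the groups. Only the hairpin and its 3p strand are shown. The other mature strand from this hairpin was not listed in the reference used. RefSeq (GRCm38.p6) places the 3p strand of miR-140 at chr8:107551288-107551308, plus strand, and the hairpin it comes from at chr8:107551244-107551313, plus strand. In the mature strand the capitals mark the seed, bases 2 to 8, with which a microRNA pairs to its targets. In the hairpin the capitals mark the mature 3p strand.
mmu-miR-140-3p: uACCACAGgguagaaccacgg
Mir140 hairpin: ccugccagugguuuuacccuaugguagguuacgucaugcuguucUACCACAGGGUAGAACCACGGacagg
Matches to this seed in receptor messenger RNAs were not analysed here.

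Values are RMA log2 signals, on which a step of 1 is a doubling of signal, and every difference is knockout minus wild type. Each group has 1 array, so there is no spread between cultures, no test and no p-value, and precision is limited by this number of arrays. A gene is represented by its brightest probe set (by the mean over the arrays), and was compared where the higher of its log2 signals reached a floor of 7. Signals of different probe sets depend on the probes and were not ranked against each other. In this bulk RNA, fewer cells of a type and less RNA per cell cannot be told apart.

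The receptors differed little between the arrays. Of the 10, 9 were above the floor, and Lrp5 was not. Of those 9, 8 had lower signal in the knockout array, where 59.2% of all 9897 genes above the floor were lower, and the median difference was -0.11 against -0.05 for all genes. For 7 of the 9 the difference lay within 0.2 of 0, as it did for 65% of all genes. Fzd6 was the 1 receptor past 1.5-fold, a size that 5.11% of all genes reached, and it was lower in the knockout array. None of the 9 was 2-fold different, which 1.7% of all genes were.

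The count of lower receptors depended on how the probe sets of a gene were combined. When all probe sets of a gene were averaged, 7 receptors were above the floor, 4 of them lower, and none was past 1.5-fold. Over the 26 probe sets, including those under the floor, 17 were lower, 8 higher and 1 equal. Over the 16 probe sets above the floor, 11 were lower, 4 higher and 1 equal. No share over all probe sets or over all averaged genes was computed to set beside these counts. The 59.2% given above is for genes by their brightest probe set.

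**Figure D1:**
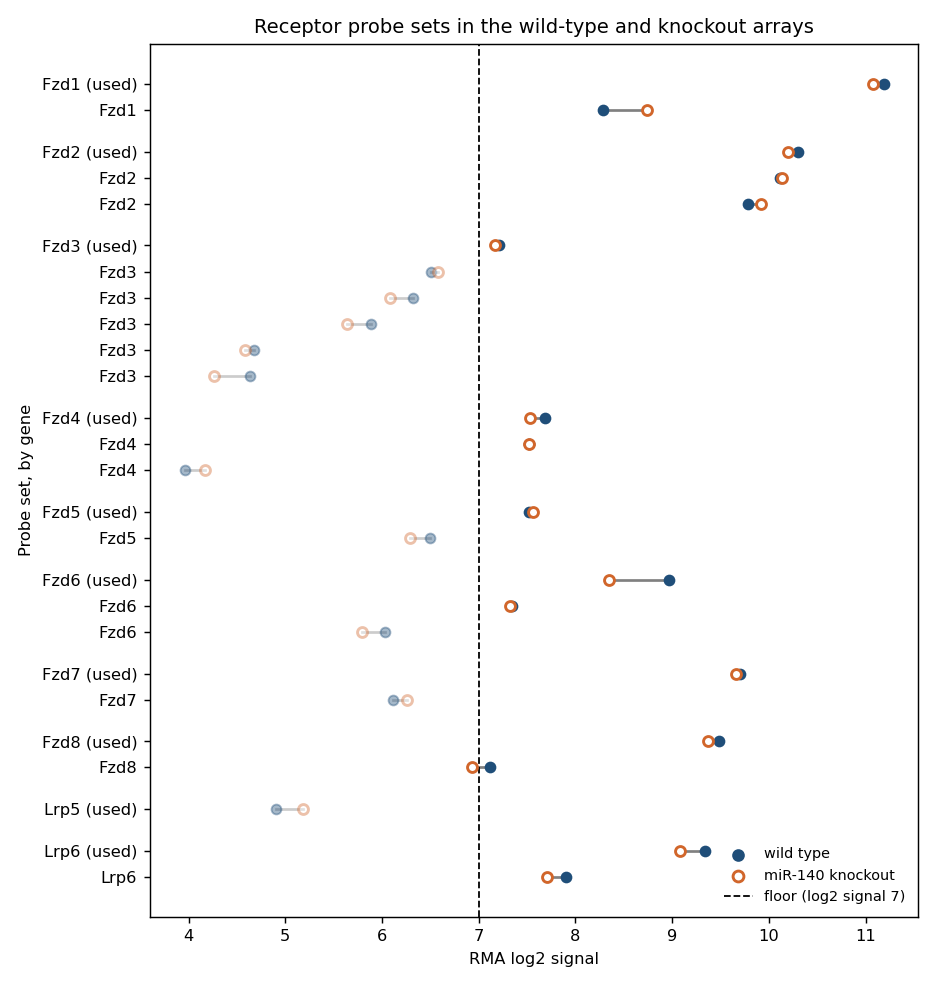
RMA log2 signal (horizontal axis) of each of the 26 receptor probe sets in the wild-type array (filled blue) and the knockout array (open orange), by gene, with "used" marking the probe set that represents the gene and pale symbols those under the floor of 7 (dashed line) in both arrays. Most pairs nearly coincide; the widest gaps above the floor are the used Fzd6 probe set, lower in the knockout by 0.62, and the other Fzd1 probe set, higher by 0.45.

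Fzd1, Fzd2 and Fzd7 are close relatives that can pair with LRP5 and LRP6 in beta-catenin signalling. Fzd1 read 11.19 in the wild-type array and 11.07 in the other, a difference of -0.11. Its other probe set read 8.29 and 8.74, a difference of 0.45, so the pair of Fzd1 probe sets disagreed in direction. No direction is given for Fzd1.

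The 3 Fzd2 probe sets were all well above the floor. They read 10.30 and 10.20, 10.11 and 10.13, and 9.79 and 9.92, for wild type and knockout in turn. The differences of -0.10, 0.02 and 0.13 lie on both sides of 0, and the first probe set carries the suffix for probes shared between transcripts. Fzd2 signal was nearly the same in both arrays.

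Fzd7 read 9.70 and 9.66 in its bright probe set, a difference of -0.04. Its dim probe set, under the floor, read 6.12 and 6.26. All 7 probe sets of these relatives but the dimmer one of Fzd1 stayed within 0.2 of 0.

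Fzd5 and Fzd8 form another closely related pair, and both are known to bind Wnt proteins of the beta-catenin branch. Fzd8 read 9.49 in wild type and 9.38 in knockout cells, a difference of -0.11. Its second probe set read 7.12 and 6.93, a difference of -0.19, so both were slightly lower in the knockout array. Fzd5 was the 1 receptor above the floor with higher knockout signal, at 7.52 and 7.56, a difference of only 0.04. Its other probe set lay under the floor at 6.50 and 6.29, on the other side of 0.

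Fzd3 and Fzd6 are relatives best known for planar cell polarity, the alignment of cells within a tissue sheet. Fzd6 read 8.97 in wild type and 8.35 in knockout cells, a difference of -0.62, or 1.53-fold lower. Of all genes above the floor, 309 (3.12%) had a lower difference. The remaining Fzd6 probe sets went the same way by less, at 7.35 and 7.32 (-0.02) above the floor and at 6.04 and 5.79 (-0.25) under it. The mean of its 3 probe sets differed by -0.30, which is under 1.5-fold.

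Fzd3 was dim. The 1 of its 6 probe sets above the floor read 7.21 and 7.17, a difference of -0.04. The 5 others differed by -0.37 to 0.07, and 4 of them were lower in the knockout array. Signals this low are near background, where RMA compresses differences.

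Fzd4 stands apart from the other Frizzled receptors in that it also binds Norrin, a signal of blood vessel growth that is not a Wnt protein. Its probe sets read 7.69 and 7.53 (-0.16), the identical value of 7.52 in both arrays, and 3.96 and 4.17 under the floor. Exactly equal values occurred in 962 of 45101 probe sets. Of the 8 endothelial markers Kdr alone reached the floor, in the wild type only. Pecam1 (4.81 and 4.77) and Cdh5 (4.81 and 5.08), which define that cell type, lay under it in both arrays.

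The LRP co-receptors were represented by Lrp6. Lrp6 read 9.34 in wild type and 9.08 in knockout cells, a difference of -0.27. Its second probe set read 7.90 and 7.71, a difference of -0.19. Both Lrp6 probe sets were lower in the knockout by a similar amount, 1.20-fold and 1.14-fold. Of all genes above the floor, 23.5% lay farther from 0 than Lrp6. Lrp5, known for its role in bone mass, has 1 probe set, which read 4.90 and 5.18 and stayed under the floor in both arrays, so no comparison is made for it.

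**Figure D2:**
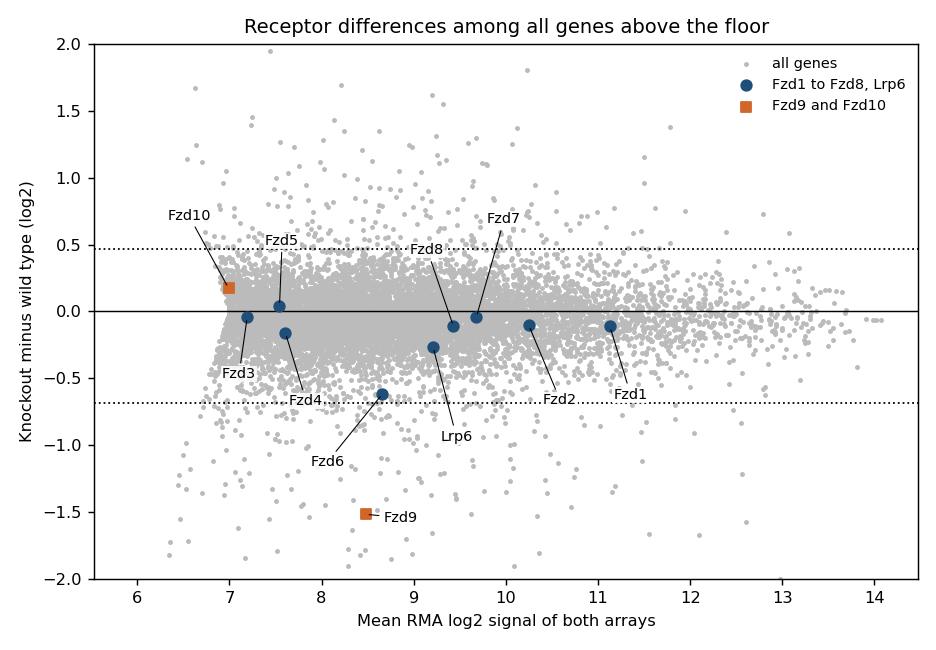
Knockout minus wild-type difference (vertical axis, log2) against the mean log2 signal of both arrays for each gene above the floor (grey), with the 9 receptors in blue and Fzd9 and Fzd10 in orange; dotted lines bound the central 95% of genes, -0.69 to 0.47, and 33 genes beyond 2 in either direction are outside the plot. All 9 receptors lie between the dotted lines, Fzd6 near the lower one, and Fzd9 lies at -1.52.

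The only repeated measure in these data is the set of probe sets of a gene, which share the same RNA and are not replicates. Of 6 receptors with at least 2 probe sets above the floor, 2 (Fzd1 and Fzd2) had probe sets of opposite sign, where 46.7% of 3838 such genes did. Between the probe sets of a gene, the differences spanned 0.56 for Fzd1, 0.59 for Fzd6, 0.23 for Fzd2, 0.16 for Fzd4 and 0.08 for both Fzd8 and Lrp6. Over all such genes the median span was 0.25 and the 90th percentile 0.64. The span for Fzd6 is nearly as large as its difference, whereas those for Lrp6 and Fzd8 are smaller than theirs.

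Fzd9, a Frizzled receptor with a known role in bone formation, is not among the 10 genes but differed far more than any of them. Its 1 probe set read 9.24 in wild type and 7.72 in knockout cells, a difference of -1.52, or 2.86-fold lower. Of all genes above the floor, 52 (0.525%) had a lower difference. With Fzd9 added, the median of the receptors stayed at -0.11. Fzd10 read 6.90 and 7.08, at the floor.

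Other receptors that bind Wnt proteins or resemble Frizzled receptors formed a separate list, and its difference from the 10 genes was not tested. Of 7 above the floor, 5 were lower and 2 higher, with a median of -0.47 (59.2% of all genes were lower, with a median of -0.05). The 3 past 1.5-fold, a size reached by 5.11% of all genes, were Fzd9, Ror2 and Smo. Ror2, a receptor tyrosine kinase that binds Wnt5a and is needed for cartilage growth, read 7.90 and 7.12 (-0.78). Smo, the Frizzled-class transducer of hedgehog signals, read 10.34 and 9.74 (-0.60), and differed by -0.25 when its probe sets were averaged. With values under the floor raised to 7, the median of this list was -0.10. Among other members of the LDL receptor family, to which Lrp5 and Lrp6 belong, 2 of 5 were lower and 3 higher. Vldlr, a lipoprotein and reelin receptor, was 1.72-fold lower (-0.78, and -0.55 averaged over its probe sets), while Lrp10 stood at -0.31 and Lrp12 at 0.28.

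**Figure D3:**
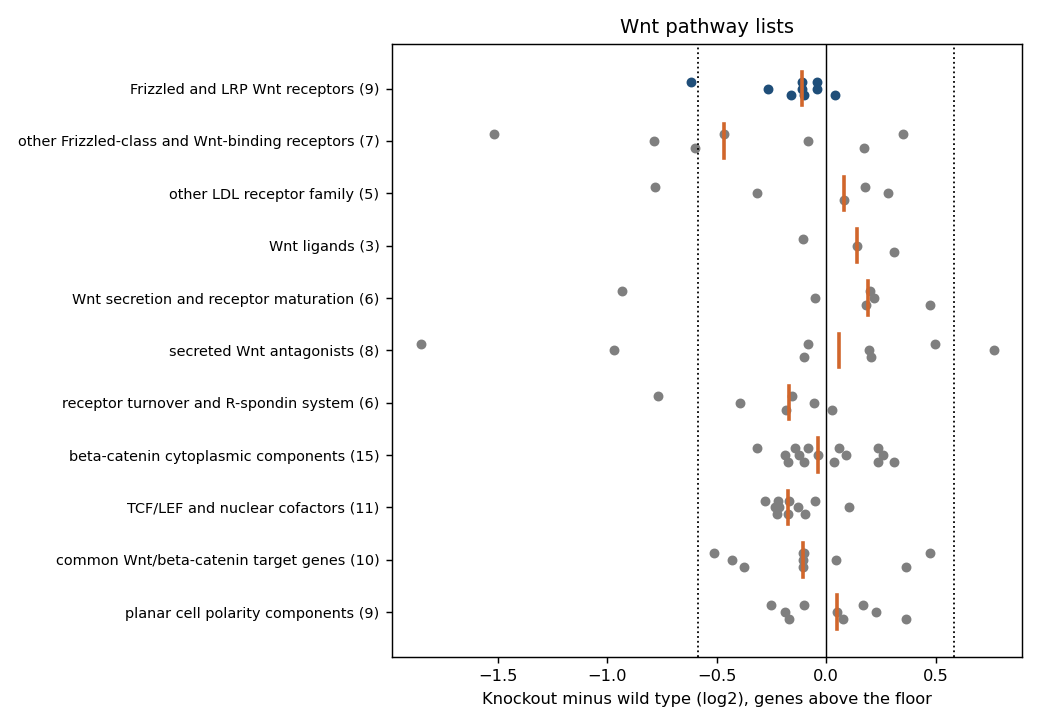
Knockout minus wild-type difference (horizontal axis, log2) of every gene above the floor in each pathway list, with the number of genes in brackets, the list median as an orange bar and 1.5-fold in either direction as dotted lines. The 9 receptors (blue) cluster near 0 apart from Fzd6, and the genes past 1.5-fold lie mostly in the lists of other receptors and secreted antagonists.

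The remaining pathway genes were placed in lists by role. Together with the other Wnt-binding receptors, 75 of them were above the floor, 46 lower (61.3%, against 59.2% of all genes) and 29 higher, with a median of -0.10. Of the 75, 8 were past 1.5-fold, 7 of them lower (3.56% of all genes were that much lower) and 1 higher (1.56% of all genes). That balance depended on the probe set chosen: averaging gave 5 lower and 2 higher of 55 genes above the floor, and taking the probe set farthest from 0 gave 7 lower and 5 higher of 75. The 5 higher genes were Dkk3, Sfrp1, Shisa2, Cd44 and Fbxw11, of which Shisa2 reached the floor in the knockout array only.

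Few Wnt ligands were above the floor, as 16 of 19 stayed under it in both arrays. Of all 18193 genes, 54.4% were above it. With a floor of 6, 9 ligands were above. Wnt7a stood at 0.31, Wnt10a at 0.14 and Wnt7b at -0.11. The list for Wnt secretion and receptor maturation also holds cell-surface glypicans. Of its 6 genes above the floor, 2 were lower and 4 higher, against 59.2% of all genes lower. Where 5.11% of all genes were past 1.5-fold, 1 of these 6 was. That gene was Gpc6, a cell-surface glypican, at 10.89 and 9.96 (-0.93, 1.91-fold lower). Shisa2, which holds back Frizzled and FGF receptors inside the cell, stood at 0.47 and Gpc3 at 0.22. Shisa2 was past 1.5-fold when averaged over its probe sets (0.67) and in its other probe set above the floor (0.87). In the wild type its signal was under the floor, at 6.55 by the brightest probe set and 6.42 averaged. The knockout array read 7.03 and 7.09, so Shisa2 reached the floor through that array only.

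Most secreted antagonists in the next list are known to keep Wnt proteins or LRP co-receptors from signalling. The list also holds Kremen1, a membrane protein that is not secreted, at -0.10. Of 8 listed genes above the floor, 4 were lower and 4 higher, against 59.2% of all genes lower. Past 1.5-fold were 3 of them, against 5.11% of all genes. Wif1, which binds Wnt proteins, stood at -1.85, Frzb, a secreted protein with a Frizzled-like Wnt-binding domain, at -0.97, and Dkk3 at 0.76 (0.57 averaged over its probe sets, under 1.5-fold). Sfrp1, another secreted protein with a Frizzled-like domain, stood at 0.20, but at 0.65 averaged over its probe sets, which is past 1.5-fold, and at 1.22 in the farthest of them. In the list for the system that sets how many Frizzled receptors stay at the cell surface, 5 of 6 genes were lower, against 59.2% of all genes. Past 1.5-fold was 1 of them, against 5.11% of all genes. The 5 lower genes include Apcdd1 (-0.16), whose probe sets above the floor ran from -0.16 to 0.24. The median of this list was -0.17, and 0.01 over 4 genes when probe sets were averaged. Rspo3, an R-spondin that protects Frizzled and LRP6 from removal, read 9.62 and 8.85 (-0.77), and differed by -0.38 averaged over its probe sets. Its receptor Lgr4 stood at -0.40 and Lgr6 at -0.18, and Lgr4 at 0.03 averaged over its probe sets. Znrf3, the ligase that removes Frizzled receptors, stood at -0.05.

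No gene of the other 4 pathway lists was past 1.5-fold by its brightest probe set. Of 15 cytoplasmic beta-catenin components, 8 were lower and 7 higher, against 59.2% of all genes lower. The kinases Gsk3a and Csnk1d stood at -0.32 and 0.31 and Dvl1, which Frizzled receptors recruit, at 0.26. For Dvl1 and Csnk1d other probe sets had the opposite sign. TCF/LEF factors and their cofactors were lower for 10 of 11 genes by small amounts, with a median of -0.17. Of all genes 59.2% were lower, with a median of -0.05. When probe sets were averaged, the list median was -0.10 over 8 genes, against -0.02 for all genes. Tle1 then moved from -0.05 to 0.12. Tcf7l1 stood at -0.28, Pygo2 at -0.24 and Ctnnbip1 at -0.23.

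Of 10 common beta-catenin target genes 7 were lower, against 59.2% of all genes, with a median of -0.11. Axin2, the target most often used to read this pathway, read 7.99 and 8.03, a difference of 0.04. Ccn2 stood at -0.51, Ccnd1 at 0.47 and Tnfrsf19 at -0.43, the last at 0.14 averaged over its probe sets. Of 9 planar cell polarity components, 4 were lower and 5 higher, with Prickle1 at 0.37 (0.00 averaged over its probe sets), Vangl2 at -0.25 and Prickle2 at 0.23. Among all these pathway genes, those with a difference nearest to that of Fzd6 were Smo (-0.60), Ccn2 (-0.51) and Rspo3 (-0.77), a likeness over 2 arrays that rests on a single difference for each gene.

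**Figure D4:**
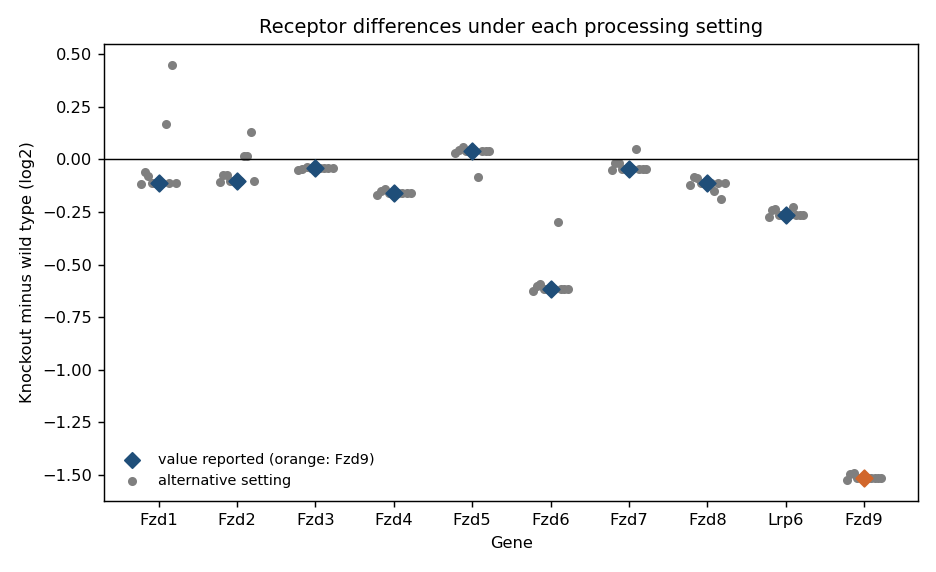
Knockout minus wild-type difference (vertical axis, log2) of each receptor and of Fzd9 as reported (diamonds) and under each processing alternative in which it was above the floor (grey points). Fzd6, Fzd8, Lrp6, Fzd3 and Fzd4 stay below 0 in all settings shown, while Fzd1, Fzd2, Fzd5 and Fzd7 have points on both sides. Fzd3 and Fzd4 have no point for averaged probe sets, where they lay under the floor and Fzd4 differed by 0.02.

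The pair of arrays differed in ways other than the receptors. All 9 chondrocyte markers were above the floor in the wild type (8.96 to 13.98), and all were at least 2-fold lower in the knockout, by differences of -4.03 to -1.18. Of all 9897 genes above the floor, 121 were that much lower. Of 9 fibroblast and perichondrium markers above the floor 7 were higher, against 3957 of all 9897 genes. The median of these markers was 0.27, with Col3a1 at 1.38, Lum at 0.96 and Postn at -1.26. The arrays also differed in Xist (7.01 and 10.60) and the Y-linked gene Eif2s3y (8.86 and 4.18), and the labels give no sex. Of 7 listed osteoblast markers, 3 (Runx2, Bglap and Spp1) were not matched to a gene here, and none of the other 4 reached the floor. Macrophage markers (4 of 7 above the floor, median 0.00), smooth muscle markers (2 of 6, Acta2 at -0.46 and Tagln at 0.04), the skeletal muscle marker Des (0.14) and adipocyte markers (4 of 5, of which 2 higher and 2 lower, median 0.16, Lpl at 1.11, Fabp4 at 0.51, Cebpa at -0.48 and Pparg at -0.18) were compared in the same way. The part of these differences in the values of Fzd6, Lrp6 and Fzd9 was not tested. With 1 array per group it cannot be told apart from genotype.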

How the data were processed

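The authors' deposited values are log2 signals. They were summarised by RMA (Robust Multichip Average) in Affymetrix Expression Console 1.1, per the labels and the submitters' processing notes. The log2 scale was read from the values, 3.24 to 14.2. Which arrays RMA took together is not stated here. Once sorted, the arrays differ nowhere by more than 0.157, so a shift common to most genes cannot be seen. Probe sets were named from the platform annotation; 932 with several symbols and 9160 not listed name no gene here. RNA was extracted with ISOGEN, per the labels' protocols.

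Differences, counts and medians were computed with pandas 2.3.3 in Python 3.11.15 and checked on simulated data. The members and lists were chosen with earlier results of these data known. From each list up to 3 genes farthest from 0 were named by rule, except that the chondrocyte and macrophage markers are not named singly. Axin2, Znrf3, Xist, Eif2s3y, Pecam1, Cdh5, Sfrp1, Cd44, Fbxw11 and Pparg were added after their values were seen. Kremen1, Tle1, Fzd10, Apcdd1 and Wwp2 are also named outside that rule. Pathway symbols not used here include Mesd, Kremen2, Tcf7 and Prickle3. Alternatives changed the normalization, floor, probe set choice and low values.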

Additional observations from a re-analysis of the deposited data

How the results depend on the processing

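The median receptor difference lay between -0.12 and -0.04 in all settings run. Over all genes the median lay between -0.06 and -0.02 in the planned settings. With the probe set farthest from 0 both medians were -0.04. With probe sets averaged they were -0.08 for the receptors and -0.02 for all genes. When all probe sets of a gene were averaged, 4 of 7 receptors were lower in place of 8 of 9, and the number past 1.5-fold was 0 in place of 1. That number was 2 with Fzd9 added and 0 without Fzd6, both chosen after seeing the data. Under the planned normalizations and floors Fzd6 alone was past 1.5-fold among the receptors. Fzd1 ranged from -0.12 to 0.45, Fzd2 from -0.11 to 0.13, Fzd5 from -0.08 to 0.06 and Fzd7 from -0.05 to 0.05, so these 4 changed sign; Fzd6 (-0.62 to -0.30), Fzd8 (-0.19 to -0.08), Lrp6 (-0.27 to -0.23) and Fzd9 (-1.53 to -1.49) did not. Lrp5 had a value with no floor only. Of the list medians, those of the Wnt ligands (-0.0045), the receptor turnover system (0.01) and the cytoplasmic components (0.03) crossed 0 when probe sets were averaged. The cytoplasmic components also did so with a floor of 8 and with the probe set farthest from 0, and the LDL receptor family (-0.06) did with no floor. A median tolerance of 0.1 and a 1.5-fold tolerance for single genes were used. No paired analysis was possible because each group has 1 array. Probe sets near background limit what can be said of Fzd3, Fzd4 and Lrp5.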
